A study of Homo sapiens with 9 samples.

Results

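The ligands of NKG2D, an activating receptor of natural killer (NK) cells and cytotoxic T cells, were examined in HEK293 cells, a line derived from human embryonic kidney, at 48 h of treatment with small interfering RNAs (siRNAs). The family was taken as 8 genes, ULBP1, ULBP2, ULBP3, MICA, MICB, RAET1E, RAET1G and RAET1L, and its members were the probe sets whose annotated gene symbols include one of them. Of the 8 genes, 7 had a probe set, through 7 of the 22011 probe sets in the table, while MICA was named by none. Only 3 of the 7 probe sets, those of ULBP1, MICB and RAET1E, carried 1 symbol, and the other 4 were shared by several genes of the family. The family was picked with its values on these arrays already known, so its levels and differences are given as a description, and counts of calls among its members support nothing.

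All groups were HEK293 cells that had received stealth siRNAs, with no other alteration named: arrays labelled siZNF326 (siRNA against ZNF326, also called ZIRD), siDBC1 (siRNA against DBC1, the protein of CCAR2) and siCTR (control siRNA). Each group held 3 arrays from independent experiments, 9 in all, with 1 log2 expression value per probe set and array. DBC1 and ZNF326 are partner proteins found between elongating RNA polymerase II and newly made messenger RNA, and the study looked at their part in gene expression and splicing. In bulk RNA of this kind, fewer cells that carry a transcript and less of it per cell cannot be told apart.

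NKG2D ligands are distant relatives of MHC class I molecules that do not present peptides. Healthy cells show few of them, and stress, infection or transformation raises them at the surface, where they mark a cell for killing by NK cells. MICA and MICB lie within the MHC, whereas the ULBP and RAET1 genes form a separate cluster on the same chromosome, in the order RAET1E, RAET1G, ULBP2, ULBP1, RAET1L and ULBP3. Members answer to several signals. ATF4, the transcription factor of the integrated stress response, is known to raise ULBP1. DNA damage signalling, p53 and heat shock factor have been tied to several members, ULBP1 not excluded.

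In the values below, ULBP1 was the member with the largest differences between the groups. No member, ULBP1 included, was called in the main fit given below. MICB was the other well measured member with a probe set of its own. ULBP2, the neighbour of ULBP1 in the cluster, was read only through probe sets shared with other genes of the family. A contrast between the levels of ULBP1 and ULBP2 was therefore not tested. The promoters of ULBP1, ULBP2 and MICB are shown. Each is the stretch of 250 bases before the gene's start in RefSeq, on assembly GRCh38.p14 and on the plus strand, at chr6:149963693-149963942 for ULBP1, chr6:149941764-149942013 for ULBP2 and chr6:31497895-31498144 for MICB. Capitals mark matches, on either strand, to TGANGNAA, a loose form of the element bound by pairs of C/EBP and ATF proteins, and to TGACG, the short core of the cyclic AMP response element.
ULBP1: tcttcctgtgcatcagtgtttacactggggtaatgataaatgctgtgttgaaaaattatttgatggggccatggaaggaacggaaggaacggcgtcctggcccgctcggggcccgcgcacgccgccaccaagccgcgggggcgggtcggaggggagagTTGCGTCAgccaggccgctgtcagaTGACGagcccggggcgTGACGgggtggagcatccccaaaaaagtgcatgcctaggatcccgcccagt
ULBP2: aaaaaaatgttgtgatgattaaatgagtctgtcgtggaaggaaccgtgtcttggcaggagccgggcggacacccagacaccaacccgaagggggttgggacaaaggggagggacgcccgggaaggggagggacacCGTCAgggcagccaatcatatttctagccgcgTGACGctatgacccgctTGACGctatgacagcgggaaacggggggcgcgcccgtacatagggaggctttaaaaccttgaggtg
MICB: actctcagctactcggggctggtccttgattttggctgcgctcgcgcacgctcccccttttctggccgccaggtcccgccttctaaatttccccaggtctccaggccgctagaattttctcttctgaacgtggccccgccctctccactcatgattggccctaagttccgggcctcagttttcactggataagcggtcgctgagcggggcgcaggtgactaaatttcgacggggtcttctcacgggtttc

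The ULBP1 window held 1 match to TGANGNAA, TTGCGTCA, from 92 to 85 bases before the start. It overlaps 1 of the 3 matches to TGACG in that window. The ULBP2 window held 3 matches to TGACG and 0 to TGANGNAA, and the MICB window held 0 of either. Over the 35116 promoter windows of the same length in the table, 12.7% held a match to TGANGNAA and 21.2% one to TGACG. The windows of ULBP3, MICA, RAET1G and RAET1L held 0 matches to both motifs, and of the 3 windows listed for RAET1E 1 held a match to TGANGNAA. The motifs were chosen after the ULBP1 values and window had been seen, and a match is a match of letters, not a measured site. ULBP3 differed from the others in 6 matches to the GC box GGGCGG, which 42.6% of windows hold at least once.

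Before the results, 3 facts about the arrays bear on them. CCAR2 fell in siDBC1, at 6.56 ± 0.078 against 7.72 ± 0.096 in siCTR (SD, n = 3 each; difference −1.16, SE 0.079, limma adjusted p = 0.0116). The ZNF326 transcript was at no lower level on siZNF326-labelled arrays, at 5.83 ± 0.28 against 5.55 ± 0.27 in siCTR (SD, n = 3 each; limma adjusted p = 0.851), so the name is used as a label of those arrays. Array medians spanned 5.76 to 5.90 for siZNF326-labelled arrays, 5.58 to 5.89 for siDBC1 and 5.67 to 5.78 for siCTR. The limma calls, at an adjusted p below 0.05 over all probe sets, numbered 33 for siZNF326-labelled arrays against siCTR (20 higher, 13 lower), 8 in siDBC1 against siCTR (2 higher, 6 lower) and 2 between the arrays labelled siZNF326 and siDBC1 (1 higher, 1 lower). Quantile normalization gave 89 higher and 107 lower, 17 higher and 52 lower, and 18 higher and 10 lower in the same order. All 8 markers listed for HEK293 cells lay above the lower quartile in each group, with an array mean of 8.24 to 8.55 for siZNF326-labelled arrays, 7.81 to 8.22 for siDBC1 and 7.82 to 8.04 for siCTR; the part of that shift in the results was not tested. Of 9 measured lymphocyte and NK cell markers, 4 lay below the lower quartile of all 9 arrays, and the mean over the 9 markers was 3.84 to 3.94 for siZNF326-labelled arrays, 3.91 to 4.21 for siDBC1 and 3.92 to 4.07 for siCTR. Of 3 measured myeloid markers 1 lay below it, and their mean was 3.59 to 3.73, 3.66 to 3.86 and 3.65 to 3.79 in the same order.

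ULBP1, a ligand anchored in the membrane by a lipid tail, was lower in siDBC1 and in the arrays labelled siZNF326 than in siCTR. Its probe set (2931036) read 6.64, 6.15 and 7.09 in siDBC1, against 8.01, 7.94 and 8.39 in siCTR, on the log2 scale. All 3 siDBC1 arrays lay below all 3 siCTR arrays. The means were 6.63 ± 0.47 and 8.11 ± 0.24 (SD, n = 3 each), a difference of −1.49 (SE 0.26, 95% interval from −2.10 to −0.88) or 2.81-fold lower in siDBC1. In the arrays labelled siZNF326 it read 7.45, 6.84 and 7.24, also all below the siCTR arrays. The mean there was 7.18 ± 0.31 (SD, n = 3), a difference from siCTR of −0.94 (SE 0.26, 95% interval from −1.54 to −0.33) or 1.91-fold lower. Both differences use the same 3 siCTR arrays.

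**Figure D1:**
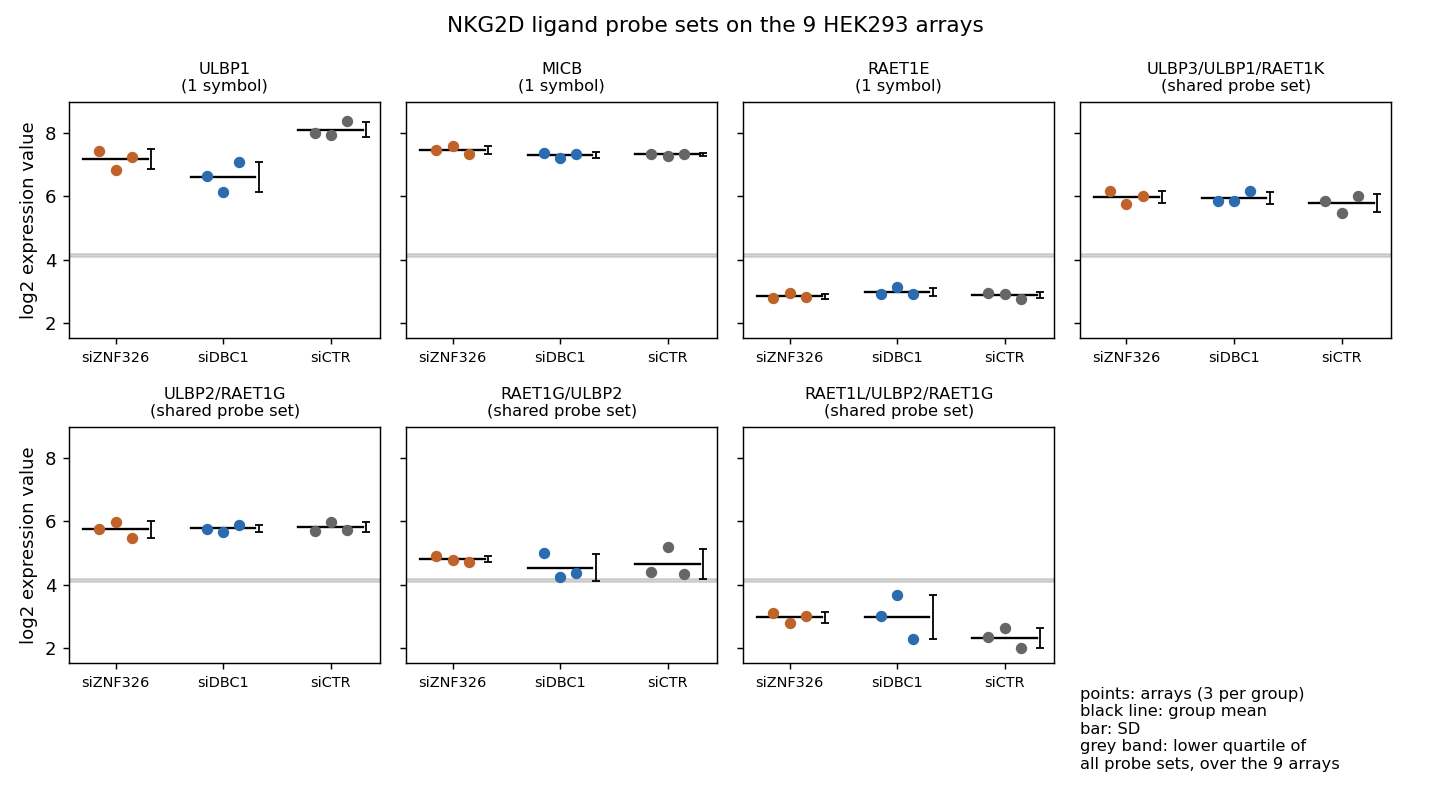
Log2 expression values of the 7 NKG2D ligand probe sets on each array (points), with the group mean (line) and SD (bar); the grey band is the lower quartile of all probe sets, 4.09 to 4.16 over the 9 arrays. ULBP1 lies lower in the siZNF326-labelled and siDBC1 arrays than in siCTR, and RAET1E and RAET1L/ULBP2/RAET1G lie under the band on all 9 arrays.

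The level of ULBP1 was highest in siCTR, intermediate in the arrays labelled siZNF326 and lowest in siDBC1. The arrays labelled siZNF326 and siDBC1 were not separated, since siDBC1 replicate 3 at 7.09 lay above the lowest array labelled siZNF326 at 6.84. The difference between the arrays labelled siZNF326 and siDBC1 was 0.55 (SE 0.26, 95% interval from −0.054 to 1.16). Spread within groups was also larger than for the other single-symbol members: the SD of ULBP1 ran from 0.24 to 0.47, against 0.040 to 0.13 for MICB and RAET1E. The lowest ULBP1 array of each group was replicate 2.

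Of the 7 members, ULBP1 among them, limma called 0 in each of the 3 comparisons. Over all probe sets, 0.15% were called in the arrays labelled siZNF326 against siCTR, 0.0363% in siDBC1 against siCTR and 0.00909% between the arrays labelled siZNF326 and siDBC1. At an unadjusted p under 0.05 the members counted 1, 1 and 0 of 7, where 8.65%, 6.18% and 7.31% of all probe sets stood, and nothing is read from these counts. In size, the ULBP1 difference in siDBC1 was the 8th lowest of 22011 probe sets, and in the arrays labelled siZNF326 the 54th lowest. By separation of arrays against siCTR, 1 member was lower in siDBC1, where 3.66% of all probe sets were, and 0 were higher, where 5.18% were. In the arrays labelled siZNF326 1 member was lower, where 5.27% of probe sets were, and 1 was higher, where 12.9% were. Between the arrays labelled siZNF326 and siDBC1, 0 members were lower or higher, where 4.24% and 5.21% of probe sets were.

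The size of the ULBP1 difference changed little with the scaling of the arrays. It was −1.51 in siDBC1 and −1.07 in the arrays labelled siZNF326 after quantile normalization, and −1.03 in the arrays labelled siZNF326 with each array centred on its median. Leaving out 1 array at a time gave −1.72 to −1.25 in siDBC1 and −1.07 to −0.77 in the arrays labelled siZNF326. The smallest values came without siDBC1 replicate 2 and without siZNF326 replicate 2. The difference between the arrays labelled siZNF326 and siDBC1 was 0.31 without siDBC1 replicate 2 and 0.79 without siDBC1 replicate 3.

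**Figure D2:**
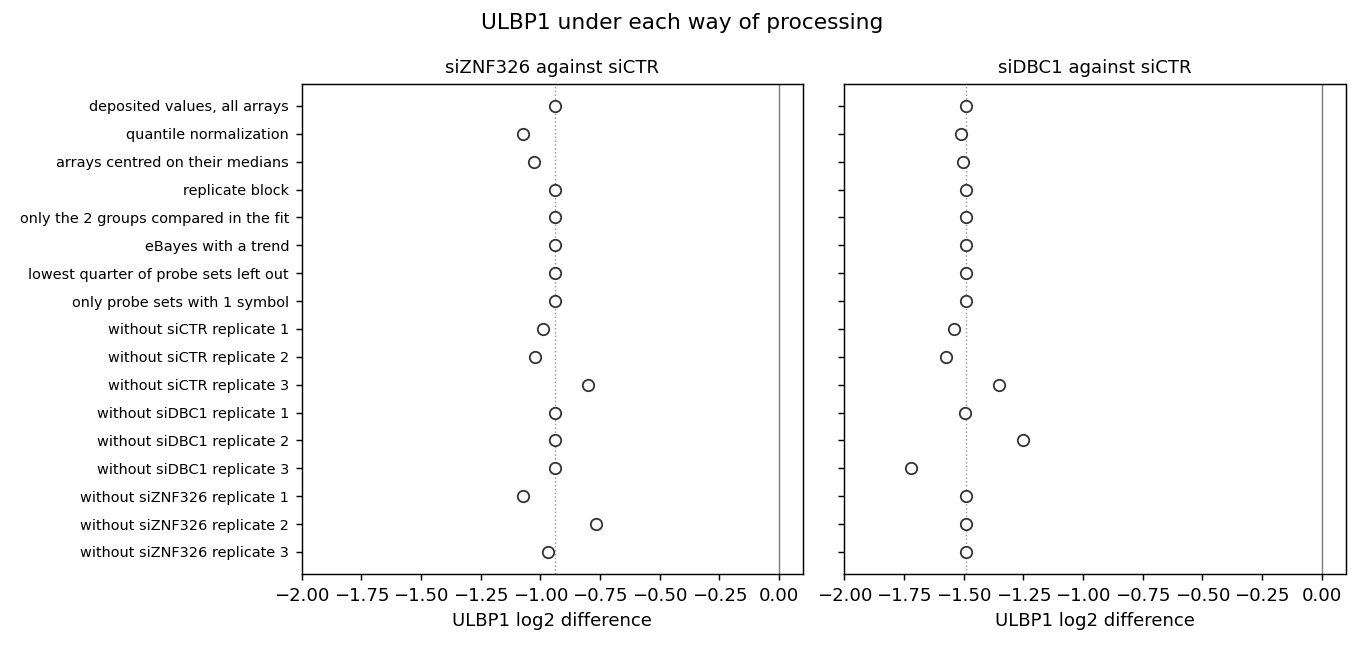
Log2 difference of ULBP1 from siCTR (horizontal axis) under each way of processing (rows), with the value from the deposited table as a dotted line. All points lie below 0. Those with 1 array left out range from −1.07 to −0.77 in the arrays labelled siZNF326 and from −1.72 to −1.25 in siDBC1. Only rescaling the arrays, or leaving out an array of the compared groups, can move a point.

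MICB, a transmembrane ligand encoded in the MHC and well above the lower quartile here, was nearly level. Its probe set (2902348) read 7.46, 7.61 and 7.36 in the arrays labelled siZNF326, 7.38, 7.21 and 7.36 in siDBC1 and 7.35, 7.29 and 7.36 in siCTR. The groups overlapped, and the same value, 7.36, stood on 1 array of each. The difference from siCTR was 0.14 (95% interval from −0.062 to 0.35) in the arrays labelled siZNF326, which turned to −0.0057 after quantile normalization. In siDBC1 it was −0.015 (95% interval from −0.22 to 0.19), beside −1.49 for ULBP1. No probe sequences were used here, so whether this probe set also reads the close relative MICA was not tested.

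RAET1E, also called ULBP4 and anchored by a transmembrane segment, stood near the bottom of the arrays. Its probe set (2979159) read 2.77, 2.93 and 2.80 in the arrays labelled siZNF326, 2.91, 3.13 and 2.91 in siDBC1 and 2.92, 2.91 and 2.75 in siCTR. All 9 values lay below the lower quartile of their arrays, and the groups overlapped. Differences from siCTR were −0.029 in the arrays labelled siZNF326 and 0.12 in siDBC1.

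The probe set annotated with ULBP3, ULBP1 and the pseudogene RAET1K (2979267) did not follow the ULBP1 probe set. It read 6.16, 5.77 and 6.003 in the arrays labelled siZNF326, 5.85, 5.85 and 6.16 in siDBC1 and 5.87, 5.47 and 6.02 in siCTR. The groups overlapped, with means of 5.98 ± 0.20, 5.95 ± 0.18 and 5.79 ± 0.28 (SD, n = 3 each) in that order. The difference from siCTR was 0.19 (95% interval from −0.21 to 0.59) in the arrays labelled siZNF326 and 0.17 (95% interval from −0.23 to 0.57) in siDBC1. Which of its 3 genes the value reflects cannot be told from the annotation.

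ULBP2, RAET1G and RAET1L are near relatives whose transcripts the annotation does not separate. The probe set listing ULBP2 first (2930957) read 5.77, 5.995 and 5.48 in the arrays labelled siZNF326, 5.77, 5.67 and 5.89 in siDBC1 and 5.70, 5.995 and 5.74 in siCTR. Its differences from siCTR were −0.063 (95% interval from −0.40 to 0.28) and −0.033 (95% interval from −0.37 to 0.31), and all 3 groups overlapped. Both turned positive without siCTR replicate 2, at 0.029 and 0.059. The first did so too without siZNF326 replicate 3, at 0.069, and the second without siDBC1 replicate 2, at 0.019.

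The probe set listing RAET1G first (2979187) read 4.92, 4.78 and 4.72 in the arrays labelled siZNF326, 5.02, 4.24 and 4.36 in siDBC1 and 4.40, 5.20 and 4.35 in siCTR. One siDBC1 array and 1 siCTR array stood above the others of their groups, and the SD was 0.10, 0.42 and 0.48 in the 3 groups. Its differences from siCTR were 0.16 and −0.11, with 95% intervals from −0.48 to 0.79 and from −0.75 to 0.52. In siDBC1 the difference was 0.16 without siCTR replicate 2 and 0.034 without siDBC1 replicate 2.

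The probe set listing RAET1L first, with ULBP2 and RAET1G (2979246), was the member with the largest positive differences and one of the dimmest. It read 3.09, 2.78 and 2.997 in the arrays labelled siZNF326, 2.99, 3.67 and 2.26 in siDBC1 and 2.35, 2.62 and 1.98 in siCTR. The arrays labelled siZNF326 all lay above siCTR, whereas siDBC1 overlapped it. The differences were 0.64 (95% interval from −0.13 to 1.41) and 0.66 (95% interval from −0.11 to 1.43), or 1.56-fold and 1.58-fold. All 9 values lay below the lower quartile, and the siDBC1 difference was 0.31 without siDBC1 replicate 2 and 1.01 without siDBC1 replicate 3.

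**Figure D3:**
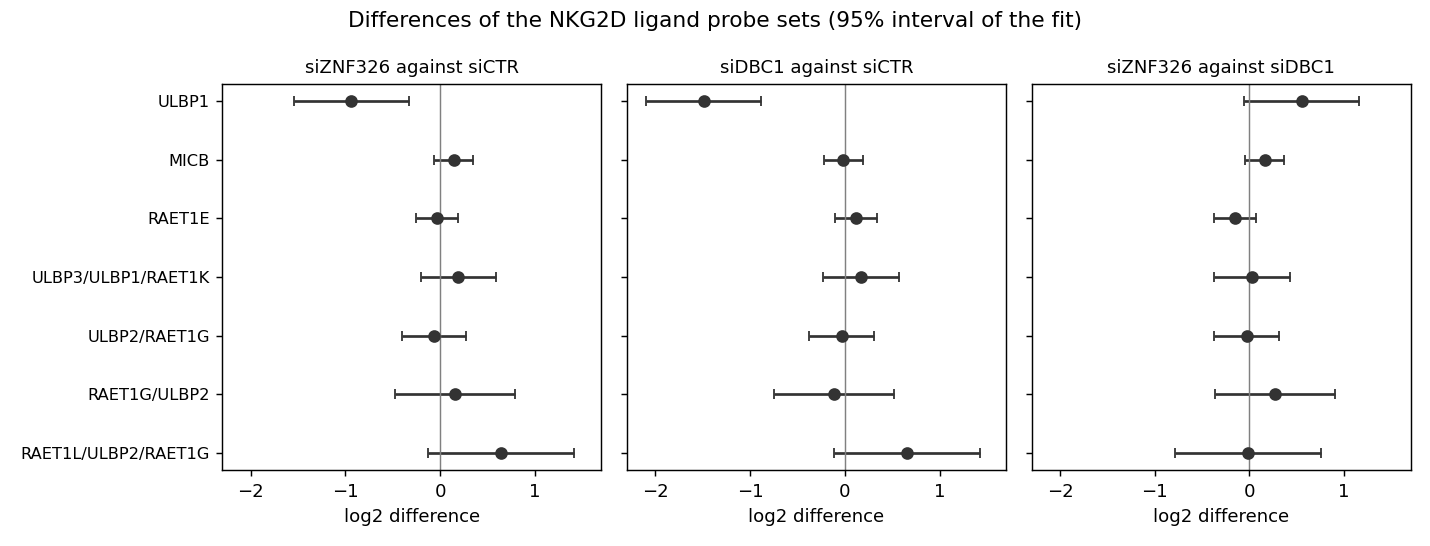
Log2 differences of the 7 NKG2D ligand probe sets with the 95% interval of the fit, in the 3 comparisons. Against siCTR the ULBP1 interval runs from −1.54 to −0.33 in the arrays labelled siZNF326 and from −2.10 to −0.88 in siDBC1. The intervals of the other 6 probe sets include 0 in each comparison. The intervals are not adjusted for the number of probe sets and serve as a description, and limma called 0 of the 7 in each comparison.

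Apart from ULBP1 the family showed no common direction. The other 6 probe sets differed from siCTR by −0.063 to 0.64 in the arrays labelled siZNF326 and by −0.11 to 0.66 in siDBC1. Over all 7 the median difference was 0.14 and −0.015, beside 0.032 and 0.014 over all probe sets, with 3 and 4 members below siCTR.

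Genes that flank the ULBP and RAET1 cluster were looked at as well. That they lay nearer to siCTR than ULBP1 supports nothing, since few probe sets had a lower difference than ULBP1. Of the 4 protein-coding genes on each side, 5 had a probe set of their own: NUP43, PCMT1 and LRP11 before RAET1E, and PPP1R14C and IYD after ULBP3. Their differences from siCTR spanned −0.15 to 0.045 in siDBC1 and −0.087 to 0.41 in the siZNF326-labelled arrays, and limma called 0 of 5 in each. At an unadjusted p under 0.05 the counts were 0 in siDBC1 (6.18% of all probe sets) and 1 of 5 in the arrays labelled siZNF326 (8.65% of all probe sets), PPP1R14C, an inhibitor of protein phosphatase 1, at 0.41 (SE 0.090, limma adjusted p = 0.207). None of the 3 protein-coding genes on either side of MICA and MICB had a probe set of its own, other than MICB.

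The 6 genes whose values followed ULBP1 most closely were CTH, NUPR1, LRRC8D, ARHGAP19, VEGFA and DDIT3. Likeness was the root mean square difference, over the 9 arrays, between the deviations of 2 probe sets from their own means, among 14431 other probe sets with 1 symbol. CTH, the enzyme that makes cysteine from cystathionine, was closest at 0.164, and DDIT3, the stress transcription factor CHOP, was the last of the 6 at 0.255. The median over all probe sets compared was 0.694. CTH lay at −1.29 from siCTR in the arrays labelled siZNF326 and −1.60 in siDBC1, and NUPR1, a small stress-induced chromatin protein, at −0.98 and −1.34. LRRC8D, a subunit of volume-regulated anion channels, lay at −1.08 and −1.28. Like ULBP1, CTH, NUPR1, LRRC8D, ARHGAP19 and VEGFA had their lowest value in siDBC1 replicate 2, whereas DDIT3 had its lowest in siDBC1 replicate 1. Genes picked for likeness resemble ULBP1 by construction, so this is a description.

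**Figure D4:**
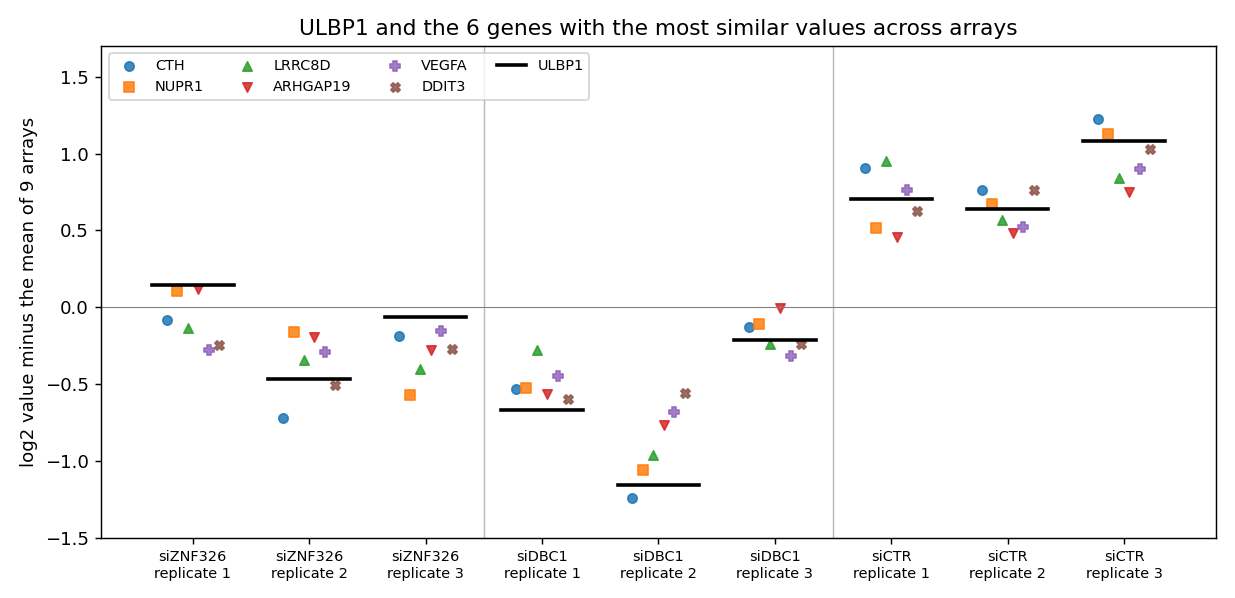
Log2 value minus the mean of the 9 arrays for ULBP1 (black lines) and for the 6 genes with the smallest root mean square difference from it (symbols), by array. All 7 genes are above their means on the 3 siCTR arrays, and the 3 siDBC1 arrays are below.

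Among 15 known target genes of ATF4, all 15 lay below siCTR in both groups. The median was −0.93 in the arrays labelled siZNF326 and −0.71 in siDBC1, beside 0.033 and 0.013 over 14232 genes with a probe set of their own. With adjustment over every probe set, limma called 4 of them lower in the arrays labelled siZNF326 (CHAC1, ASNS, DDIT3 and PHGDH) and 3 in siDBC1 (CHAC1, ASNS and VEGFA). Of the 14232 genes, 0.19% and 0.035% were called, in either direction. CHAC1, which degrades glutathione, fell by 2.19 (SE 0.11, limma adjusted p = 0.00133) on the log2 scale in the arrays labelled siZNF326. In siDBC1 CHAC1 fell by 1.46 (SE 0.11, limma adjusted p = 0.0116). The ULBP1 difference of −0.94 in the arrays labelled siZNF326 was close to the median of this list, and its −1.49 in siDBC1 lay beyond every listed target except the cystine transporter SLC7A11, at −1.78. These genes were chosen with their direction known. With 1 array left out, 1 to 8 of them were called in the arrays labelled siZNF326, with 8 when siDBC1 replicate 2 was absent, 3 when siDBC1 replicate 3 was, and 1 for any other array, and 0 to 1 in siDBC1. After quantile normalization 9 and 7 were called, and with a replicate block 1 and 0.

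The ATF4 transcript was level, at 5.98 ± 0.10 in the arrays labelled siZNF326, 5.99 ± 0.23 in siDBC1 and 5.98 ± 0.0065 in siCTR (SD, n = 3 each). ATF4 protein and its activity were not measured, so a change in them was not tested. ATF4 belongs to a list of 26 regulators of ligand transcription and RNA, 21 of them measured and 0 called by limma in any comparison. At an unadjusted p under 0.05 the list held 3, 0 and 2 of 21 in the arrays labelled siZNF326, in siDBC1 and between them, beside 8.65%, 6.18% and 7.31% of all probe sets. HDAC3, a histone deacetylase known to repress ULBP genes in cancer cells, differed from siCTR by 0.72 (SE 0.13, limma adjusted p = 0.109) in the arrays labelled siZNF326 and by 0.23 (limma adjusted p = 0.921) in siDBC1. HDAC1 differed by 0.52 (limma adjusted p = 0.390) and 0.10 (limma adjusted p = 0.990). HSF1, the heat shock factor, differed by −0.040 and 0.024.

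Targets of p53 and heat shock genes, 2 programs also tied to NKG2D ligands, lay on the other side of siCTR from ULBP1. All 11 measured p53 targets were above siCTR in both groups, with medians of 0.80 in the arrays labelled siZNF326 and 0.32 in siDBC1. In the arrays labelled siZNF326 limma called 2, TP53I3 at 1.66 (limma adjusted p = 0.00523) and CDKN1A at 1.51 (limma adjusted p = 0.0216), and 0 to 2 with 1 array left out, the 2 being without siDBC1 replicate 2 or 3 and the 0 without siCTR replicate 3 or siZNF326 replicate 2. In siDBC1 it called 0, with 4 at an unadjusted p under 0.05 (6.18% of all probe sets). Of the 14232 genes with a probe set of their own, limma called 0.19% in the arrays labelled siZNF326 and 0.035% in siDBC1. The median in siDBC1 was 0.53 without siDBC1 replicate 2 and 0.20 without siDBC1 replicate 3. In the arrays labelled siZNF326 the median was 0.53 without siZNF326 replicate 1 and 0.94 without siZNF326 replicate 3. The 6 measured heat shock genes were all above siCTR, with medians of 0.43 and 0.40, and limma called 0 in each, with 4 and 5 of 6 at an unadjusted p under 0.05, beside 8.65% and 6.18% of all probe sets. DNAJB1, a co-chaperone, was at 0.66 (limma adjusted p = 0.247) and 0.57 (limma adjusted p = 0.516). After quantile normalization the p53 medians were 0.65 and 0.31, with 5 and 2 calls, beside 196 and 69 calls over all probe sets. A replicate block left 0 and 0 p53 calls.

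**Figure D5:**
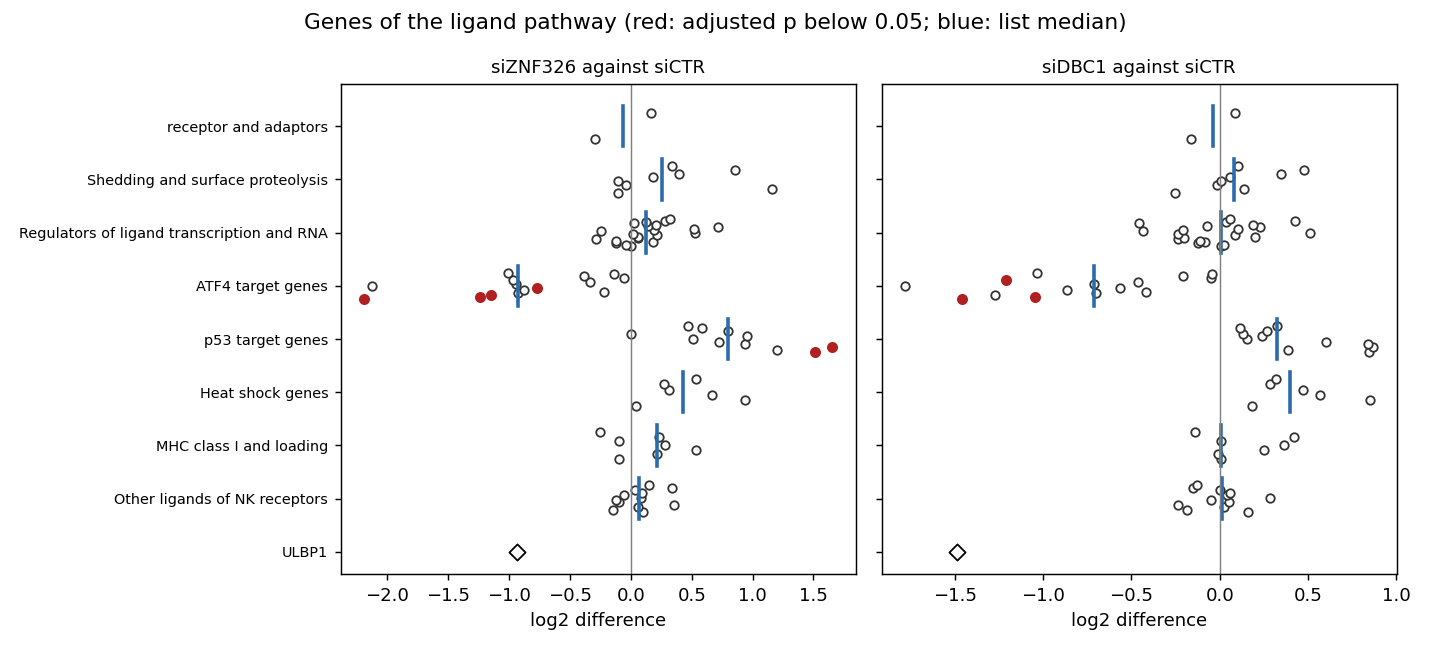
Log2 difference from siCTR (horizontal axis) of each measured gene in 8 lists (rows), with filled red points for an adjusted p below 0.05, the list median in blue, and ULBP1 as a diamond. All 15 ATF4 targets and ULBP1 lie below 0 and all 11 p53 targets above 0 in both comparisons.

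Genes that act on ligands after they reach the surface were examined too. Ligands are shed by metalloproteases, which tissue inhibitors (TIMPs) restrain. Of the 8 measured genes of this list, limma called 0 in each comparison, with 4 at an unadjusted p under 0.05 in the arrays labelled siZNF326 against siCTR, 2 in siDBC1 and 1 between the arrays labelled siZNF326 and siDBC1, beside 8.65%, 6.18% and 7.31% of all probe sets. The sheddases ADAM10 and ADAM17 were listed too but had no probe set of their own. MMP2, a gelatinase, differed from siCTR by 1.16 (SE 0.20, limma adjusted p = 0.106) in the arrays labelled siZNF326 and by 0.14 in siDBC1. TIMP2 differed by 0.86 (limma adjusted p = 0.207) and 0.48 (limma adjusted p = 0.776). PDIA6, a disulfide isomerase that takes part in MICA shedding, differed by 0.18 and 0.059. The receptor gene KLRK1 had no probe set of its own, and of its adaptors HCST lay at −0.29 and −0.16 and TYROBP at 0.17 and 0.085. Limma called 0 of 2, with 1 and 0 at an unadjusted p under 0.05, beside 8.65% and 6.18% of all probe sets.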

How the data were processed

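Total RNA from 9 HEK293 cultures was cleaned of DNA and ribosomal RNA and hybridised to Affymetrix whole-transcript arrays, 1 per culture, per the labels' protocols. The authors deposited log2 values, made with RMA and with hg18 named as genome build, per the submitters' processing notes. The RMA version is not given in the sources used here. Of the probe sets, 41.45% had one value on at least 2 arrays. Detection values and scanner files were not used here, so background correction was not varied. Precision is limited by having 3 arrays per group.

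A linear model with 3 groups was fitted to all 22011 probe sets with limma 3.58.1 in R 4.3.3 (lmFit, eBayes, two-sided), with Benjamini-Hochberg adjustment within each comparison. An adjusted p below 0.05 was a call. The fit was tested on simulated data. Same-numbered arrays did not deviate together under every number (3 of 9 pairs correlated over 0.1), and the main fit used no block. Pairs of replicate 2 correlated at 0.0958 to 0.395, those of replicate 1 at −0.124 to 0.0243 and those of replicate 3 at −0.296 to 0.255. Whether same-numbered arrays shared an experiment was not tested. A listed gene was read from its own single-symbol probe set (if several, the brightest). The members, lists (8 of the pathway and 3 of cell markers) and tests were chosen with earlier results of these data known. Named genes were all members, the siRNA targets, the neighbours, the 6 most alike genes and, per list, called genes or up to 3 with the smallest p. Other genes named, ATF4, HSF1, PDIA6, SLC7A11 among them, were chosen after their values were seen. Promoters came from RefSeq, which listed 10 windows for all 8 genes.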

Additional observations from a re-analysis of the deposited data

How the results depend on the processing

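ULBP1 stayed below siCTR under all 16 alternatives in both comparisons, and above siDBC1 in the arrays labelled siZNF326. Against siCTR, only quantile normalization and centring could have changed the sign. The replicate block, the fit of the compared groups alone, the trend, the probe set filters and removal of a third-group array leave the difference unchanged. Removal of a compared array cannot turn it, since the groups were separated from siCTR. Leave-one-out ranges were −1.07 to −0.77 (arrays labelled siZNF326 against siCTR), −1.72 to −1.25 (siDBC1 against siCTR) and 0.31 to 0.79 (arrays labelled siZNF326 against siDBC1). After quantile normalization 1 member, ULBP1, was called against siCTR in each of the 2 groups. Over all probe sets, 196 were then called in the arrays labelled siZNF326 and 69 in siDBC1, beside 33 and 8 in the main fit. With centred arrays 1 member, again ULBP1, was called in siDBC1, beside 46 calls over all probe sets. In the arrays labelled siZNF326 0 members were called with centred arrays, beside 119 over all probe sets. The member calls are counts and no test, since the members were chosen with their values known.

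Counts over all probe sets moved far more than the values. In the order arrays labelled siZNF326 against siCTR, siDBC1 against siCTR and arrays labelled siZNF326 against siDBC1, limma called 33, 8 and 2, and 196, 69 and 28 after quantile normalization, 119, 46 and 9 with centred arrays, 1, 0 and 0 with a replicate block (2007, 1360 and 1769 at an unadjusted p under 0.05) and 5, 0 and 0 when each fit held just its 2 groups (2844, 1100 and 1118). A trend in eBayes gave 4 in siDBC1 against siCTR, and a fit of probe sets with 1 symbol gave 52, 11 and 4. With 1 array left out the counts ran from 1 to 64, 0 to 4 and 0 to 1. The cause was not tested. The replicate numbers were treated as names in the main fit. Same-numbered arrays correlated from −0.30 to 0.40, with the replicate 2 pairs all above 0, and 4 of 9 arrays correlated best with their own number. MICB, RAET1E and the 4 shared probe sets changed sign under some alternatives, at differences within the spread of their arrays. Shared members were not in the fit of probe sets with 1 symbol.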

Other observations

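Ligands of other NK cell receptors differed from siCTR by −0.15 to 0.36 in the arrays labelled siZNF326 and by −0.24 to 0.28 in siDBC1. Of 15 listed, 12 had a probe set of their own, and limma called 0 in each of the 3 comparisons. At an unadjusted p under 0.05 the list held 0 in each, beside 8.65%, 6.18% and 7.31% of all probe sets. Their medians against siCTR were 0.070 in the arrays labelled siZNF326 and 0.016 in siDBC1, and both turned below 0 after quantile normalization, at −0.0065 and −0.017. PVR, a ligand of the activating receptor DNAM-1, lay at −0.15 (SE 0.084, limma adjusted p = 0.665) and −0.18 (SE 0.084, limma adjusted p = 0.840). By separation of arrays from siCTR 1 of the 12, PVR, was lower and 1 was higher in each group. The higher gene was CADM1 at 0.15 in the arrays labelled siZNF326, and the dim CLEC2B at 0.0545 in siDBC1. Over all probe sets 5.27% and 3.66% were lower, and 12.9% and 5.18% higher. CLEC2B and VCAM1 lay below the lower quartile on all 9 arrays, and NCR3LG1, CLEC2D and PCNA had no probe set of their own. BAG6, which NKp30 can bind, lay at 0.10 and 0.16.

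MHC class I genes and their loading machinery, whose products restrain NK cells, were measured through 7 of 12 genes. Limma called 0 in each comparison, with 0, 1 and 0 of 7 at an unadjusted p under 0.05 (8.65%, 6.18% and 7.31% of all probe sets) in the arrays labelled siZNF326 against siCTR, siDBC1 against siCTR and the arrays labelled siZNF326 against siDBC1. The medians against siCTR were 0.22 in the arrays labelled siZNF326 and 0.0071 in siDBC1, where it was −0.0009 after quantile normalization. B2M, the light chain of class I molecules, lay at 0.54 (limma adjusted p = 0.644) and 0.25 (limma adjusted p = 0.979), and TAPBP, the loading chaperone tapasin, at 0.23 (limma adjusted p = 0.647) and 0.42 (limma adjusted p = 0.579).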
